A study of Sus scrofa with 16 samples.

Results

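The enzymes of the tricarboxylic acid (TCA) cycle and pyruvate carboxylase (PC) were followed in the subcutaneous adipose tissue of 16 pigs. The members were 9 genes named for them: PC, CS, IDH2, IDH3A, OGDH, SUCLG1, FH, MDH1 and MDH2. Their probes were taken by the gene name that the scanner files give, on condition that a probe was well above background on at least 8 arrays. The results below rest on 25 of the 32100 probes kept (43603 on the array), for 7 of the 9 genes, and each of the 25 was well above background on all 16 arrays. CS had 7 probes, IDH3A 5, MDH1 4, IDH2 3, MDH2 3, PC 2 and SUCLG1 1. No probe carried the name OGDH, so 2-oxoglutarate dehydrogenase was not analysed here. A further 9 probes carry the name FH, but 0 probes list the RefSeq transcript of fumarate hydratase (NM_001243588), so that enzyme was not analysed here and the 9 are not reported. A RefSeq transcript of the named gene is listed by 0 of the 3 MDH2 probes, 1 of the 5 IDH3A probes and 2 of the 4 MDH1 probes, the brightest MDH1 probe not among them, and the names of the others rest on the files.

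The pigs weighed 20 kg, were fed ad libitum and came from lines divergently selected on residual feed intake (RFI), the feed eaten beyond or below what an animal's growth and maintenance predict. There were 8 pigs of the low-RFI line, which eat less than predicted, and 8 of the high-RFI line. Each pig's total RNA (150 ng) was labelled with Cy3 and hybridised to its own 1-colour Agilent array. The labels give no sex, litter or pen, and what separates replicates 1-4 from replicates 5-8 of each line was not stated. Those number sets are therefore described as labelled sets and not as a treatment. The series asks how selection on RFI changed gene expression in this tissue.

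In mitochondria, citrate synthase (CS) joins acetyl-CoA to oxaloacetate, the isocitrate dehydrogenases (IDH2 with NADP, the IDH3 complex with NAD) and 2-oxoglutarate dehydrogenase release carbon dioxide, succinyl-CoA ligase (SUCLG1 is its alpha subunit) makes a nucleoside triphosphate, and fumarate hydratase and malate dehydrogenase (MDH2) return the carbon to oxaloacetate. PC refills the cycle by making oxaloacetate from pyruvate. In adipocytes citrate is also exported to the cytosol, where it feeds fatty acid synthesis, and cytosolic malate dehydrogenase (MDH1) and malic enzyme recycle the remaining carbon.

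The probes are 60 bases long. The sequences below show what was hybridised and how far probes of a gene are independent of each other, with the longest unbroken run shared by a pair in capitals and start positions counted in the target transcript as the files give them. The CS probes that start at base 549 and base 542 of NM_214276 share a run of 47 bases, and over the whole overlap of 53 aligned bases they have 0 mismatches and a gap of 1 base, so that the bases shared before the gap stay in lower case.
CS probe A_72_P555890: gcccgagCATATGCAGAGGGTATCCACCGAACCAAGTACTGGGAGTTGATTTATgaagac
CS probe A_72_P630718: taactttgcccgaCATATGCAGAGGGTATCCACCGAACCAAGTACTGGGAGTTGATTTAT
A further pair of CS probes, A_72_P436629 and A_72_P538593, is the same sequence under different names, starting at base 210, so all of it is in capitals.
CS probe A_72_P436629: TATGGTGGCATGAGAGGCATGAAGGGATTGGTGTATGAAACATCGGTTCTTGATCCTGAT
The PC probes start at bases 285 and 3477 of NM_214349 and share no bases beyond a run of 7. They are independent readings of a long transcript.
PC probe A_72_P479920: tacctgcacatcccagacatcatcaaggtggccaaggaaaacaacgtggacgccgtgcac
PC probe A_72_P303224: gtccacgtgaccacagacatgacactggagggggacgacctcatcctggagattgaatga
The single SUCLG1 probe, which starts at base 726 of NM_214409, is the only reading of that gene.
SUCLG1 probe A_72_P035951: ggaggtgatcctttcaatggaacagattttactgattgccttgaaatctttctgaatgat

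Values are log2 processed signals from which each array's 75th percentile was subtracted, so 0 is that percentile and a difference of 1 is 2-fold. Because probes differ in how well they bind, no probe's level is set against another probe's. The probe with the highest mean signal stands for each gene. Between 68.7% and 80.3% of the spots on an array were well above background, none was saturated, and arrays correlated with each other at 0.944 to 0.989. The arrays lay on 4 slides, each with 1 pig of every combination of line and set. All 12 adipocyte markers listed were measured. On the array of low-RFI replicate 8, 10 of the 11 skeletal muscle markers measured (17 listed) were at their highest of the 16 pigs, TPM2 being the exception. The mean of the 11, each centred on its mean over pigs, was 7.10 there, 1.07 on the next array (low-RFI replicate 6) and between -0.92 and 0.46 on the other 14 arrays. MYL1, a myosin light chain of fast muscle, read 7.99 on the array of low-RFI replicate 8 against a median of -5.11 on the other 15 arrays. The brightest probes of IDH2, IDH3A and MDH2 were at their highest on this array, and their differences are given with and without it. The origin of the muscle marker signal was not tested.

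No enzyme passed the test of the line difference, and 6 of the 7 averaged slightly higher in low-RFI pigs. By number set, 0 of the 7 averaged higher in low-RFI pigs in replicates 1-4 and 6 of the 7 in replicates 5-8. Of the 25 probes, 0 passed an adjusted p of 0.05 in limma and 0 had an unadjusted p under 0.05. Over all 32100 probes, 0% passed the adjusted threshold and 3.68% the unadjusted one. The difference, low-RFI minus high-RFI, was above 0 for 21 of the 25 probes, with a median of 0.05, beside 16036 of the 32100 probes and a median of 0.00. For each of the 25 probes the values of the lines overlapped, while 4 of all probes (0.0125%) had lines that did not overlap.

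PC, which feeds oxaloacetate into the cycle, was the only enzyme with a lower mean in the low-RFI line. In low-RFI pigs its signal ran from 5.54 to 6.48 with a median of 5.84, and in high-RFI pigs from 5.55 to 6.70 with a median of 6.31. The low-RFI mean of 5.98 ± 0.34 (SD, n = 8) was lower by a log2 difference of -0.23 (SE 0.19, 95% interval -0.63 to 0.16), and the ranges overlapped nearly throughout. The other PC probe gave a smaller difference of -0.07 (SE 0.22). CS, the entry step of the cycle, ran from 5.76 to 6.74 in low-RFI pigs (median 6.29) and from 5.79 to 6.72 in high-RFI pigs (median 6.21). Its difference was 0.01 (SE 0.17, 95% interval -0.35 to 0.38), and the ranges were almost the same.

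For IDH3A, the catalytic subunit of the NAD-dependent enzyme, low-RFI pigs ran from 2.45 to 3.31 (median 2.59) and high-RFI pigs from 2.11 to 2.80 (median 2.55). The difference of 0.22 (SE 0.14, 95% interval -0.07 to 0.51) had the smallest unadjusted p among the genes, 0.131 in limma, and its other 4 probes gave -0.01 to 0.04. Without low-RFI replicate 8 it was 0.13. IDH2 ran from 3.60 to 5.67 in low-RFI pigs (median 4.12) and from 3.69 to 4.41 in high-RFI pigs (median 4.04). Its difference of 0.09 (SE 0.23, 95% interval -0.40 to 0.58) turned to -0.12 without low-RFI replicate 8, which holds the 5.67.

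SUCLG1 differed by 0.11 (SE 0.14), MDH1 by 0.14 (SE 0.17) and MDH2 by 0.19 (SE 0.21), all higher on average in low-RFI pigs and all within the spread between pigs. SUCLG1 ran from 3.34 to 4.22 in low-RFI pigs (median 3.76) and from 3.23 to 3.94 in high-RFI pigs (median 3.63). MDH1 ran from 6.54 to 7.16 (median 6.90) and from 5.77 to 7.22 (median 6.86), with a high-RFI pig at each extreme. MDH2 ran from 2.74 to 4.37 (median 3.62) and from 2.75 to 3.81 (median 3.41). The sizes depended on single pigs. The lowest values with a pig left out were 0.03 for SUCLG1 (without low-RFI replicate 4), 0.0089 for MDH1 (without high-RFI replicate 5) and 0.08 for MDH2 (without low-RFI replicate 8).

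These intervals bound what the lines could differ by. The 95% interval stayed inside a 2-fold change for all 25 probes and inside a 1.5-fold change for 21. Its largest reach among the brightest probes was 1.56-fold (MDH2, log2 0.64). Another MDH2 probe, A_72_P639423, reached further, to log2 0.68. On simulated arrays of 32100 probes, with the spread that remains after line and set, limma recovered 52.2% of the probes changed 1.5-fold between the lines and 73.1% of those changed 2-fold. The line test of the real arrays had no term for set, so its spread includes set differences that the simulated arrays lacked. These shares therefore do not give the power of that test. Fitted within replicates 1-4 alone, 0 of the 25 passed (0.0156% of all probes), and within replicates 5-8 alone 0 passed (0% of all probes).

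**Figure D1:**
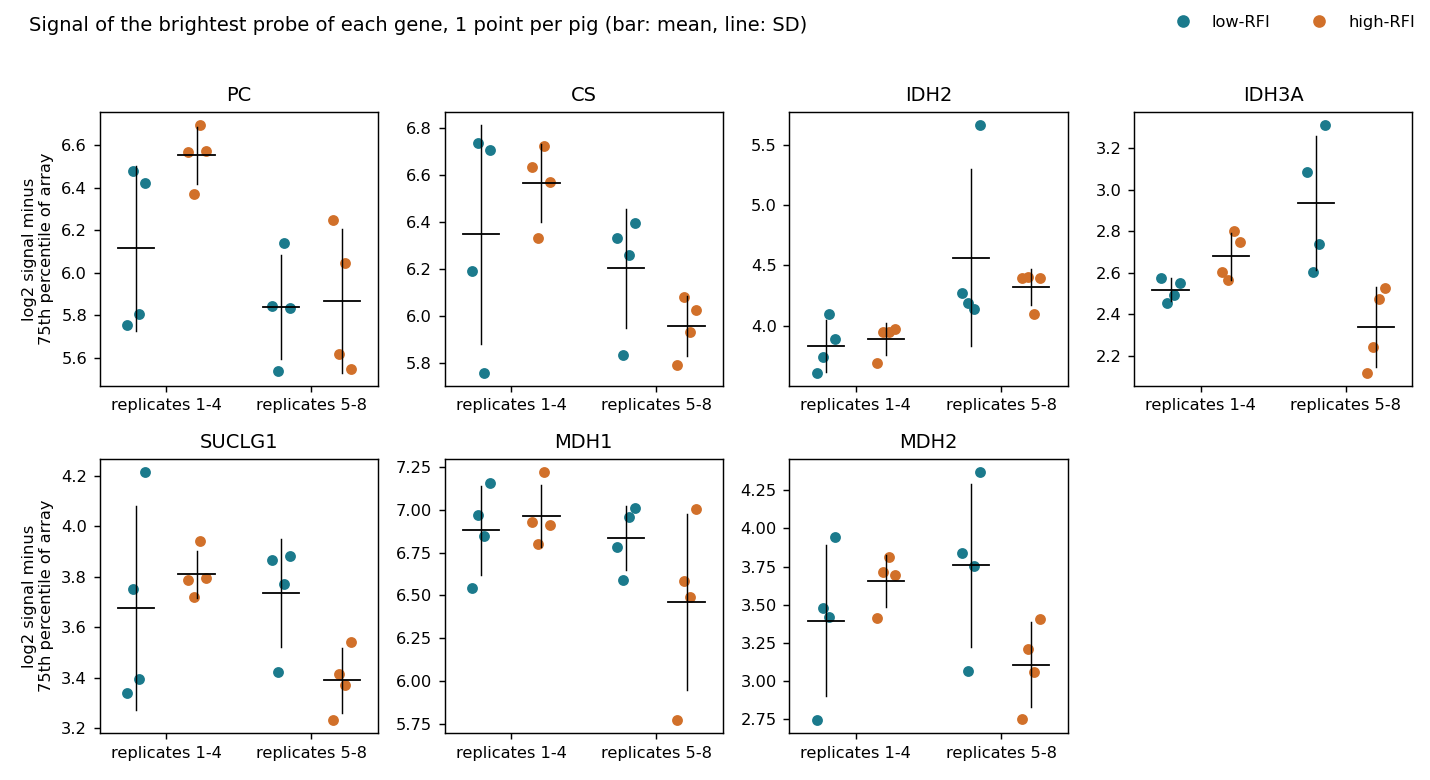
Signal of the brightest probe of each gene (y axis, log2 signal relative to the 75th percentile of its array), 1 point per pig, grouped by number set and line (bar, mean; vertical line, SD; n = 4 pigs each). The lines overlap for every gene over all pigs, CS and PC sit lower in replicates 5-8, and 1 low-RFI pig stands apart at 5.67 for IDH2.

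Between replicates 5-8 and 1-4, PC, CS and MDH1 averaged lower and IDH2 higher in the later numbers. In limma 0 of the 25 probes passed an adjusted p of 0.05 (5.18% of all probes passed). Unadjusted p-values were under 0.05 for 12 of the 25, beside 23.5% of all probes: all 7 CS probes, both PC probes, 2 of 4 MDH1 probes and 1 of 3 IDH2 probes. The smallest adjusted p was 0.0685, for PC, and 4 probes were under 0.1. The split was known from earlier results of these data, so these p-values are descriptions of it. With array weights 10 of the 25 passed and 16.7% of all probes did. Without low-RFI replicate 3, 10 passed and 14.9% of all probes did. A single probe of the 25 passed with quantile scaling (4.91% of all probes), with normexp and quantile together (5.25%), without low-RFI replicate 1 (4.95%) and without low-RFI replicate 8 (4.88%). It was the brightest PC probe without low-RFI replicate 1 and the brightest IDH2 probe in the other fits. For none of the 25 were the sets free of overlap, while 0.393% of all probes had sets that did not overlap.

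PC averaged lower in replicates 5-8. It ran from 5.75 to 6.70 in replicates 1-4 (median 6.45) and from 5.54 to 6.25 in replicates 5-8 (median 5.84), a difference of -0.48 (SE 0.15, limma adjusted p = 0.0685). All 8 pigs of the later numbers lay below the median of the earlier ones, and the ranges overlapped. The other PC probe gave -0.52 (adjusted p = 0.0974).

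CS showed the same direction on 7 of 7 probes, from -0.45 to -0.34. Its brightest probe ran from 5.76 to 6.74 in replicates 1-4 (median 6.60) and from 5.79 to 6.39 in replicates 5-8 (median 6.05). The difference was -0.38 (SE 0.15, limma adjusted p = 0.139), with 8 of 8 later pigs below the earlier median.

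IDH2 averaged higher in replicates 5-8. It ran from 3.60 to 4.10 in replicates 1-4 (median 3.92) and from 4.10 to 5.67 in replicates 5-8 (median 4.33). Of the later pigs, 7 of 8 lay above the highest earlier one. The difference was 0.58 (SE 0.19, limma adjusted p = 0.0745). Without low-RFI replicate 8, where the muscle markers were high, it was smaller at 0.40 but passed the threshold, with an adjusted p of 0.0270. Its adjusted p was 0.0444 with quantile scaling, 0.0414 with normexp background correction and quantile scaling together and 0.0430 with array weights. The remaining IDH2 probes gave 0.25 and 0.29 with all pigs (limma adjusted p = 0.428 and 0.396). Both were also at their highest in low-RFI replicate 8, at 2.08 and 2.34. Without that array, the brightest was the only IDH2 probe that passed.

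The other enzymes had smaller differences in this comparison. MDH1 differed by -0.27 (SE 0.16), SUCLG1 by -0.18 (SE 0.13), MDH2 by -0.09 (SE 0.22) and IDH3A by 0.04 (SE 0.14). None of these brightest probes had an adjusted p under 0.3 in limma. The other 3 MDH1 probes gave -0.36, -0.30 and -0.29 (limma adjusted p = 0.156, 0.254 and 0.161), a little larger than the brightest. Without low-RFI replicate 8, MDH2 differed by -0.22 and IDH3A by -0.05. In bulk tissue, fewer cells of a type and less RNA per cell cannot be told apart. The mean of the 12 adipocyte markers, centred on its mean over pigs, ran from -0.26 to 0.28 in replicates 1-4 (median 0.12) and from -0.30 to 0.27 in replicates 5-8 (median -0.14).

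**Figure D2:**
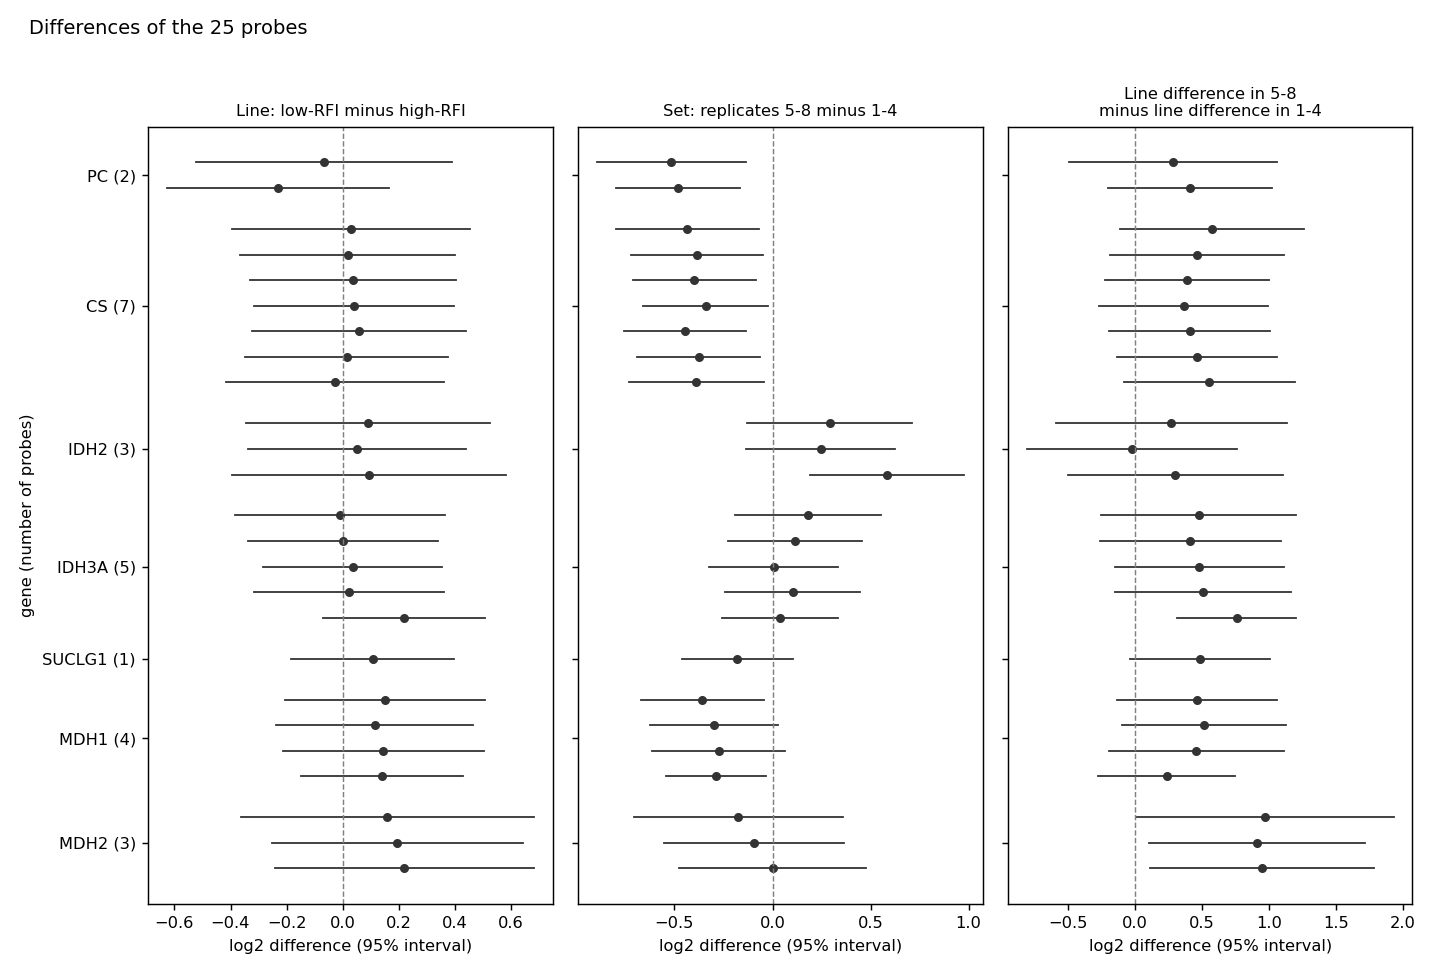
Log2 differences of the 25 probes with 95% intervals from limma (x axes), probes grouped by gene (y axis, number of probes in brackets), for the line, for the number set and for the change of the line difference between sets. In the left panel all intervals cross 0, in the middle panel those of all CS and PC probes lie below 0, and in the right panel 24 of the 25 probes lie above 0.

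Split by line, CS passed the test between the sets in high-RFI pigs and not in low-RFI pigs, and the lines did not pass the test of differing in this (limma interaction adjusted p = 0.775). In high-RFI pigs, CS was 6.63, 6.33, 6.72 and 6.57 in replicates 1 to 4 and 5.79, 6.08, 5.93 and 6.03 in replicates 5 to 8, with no overlap. In low-RFI pigs it was 6.19, 6.74, 5.76 and 6.70 against 6.33, 5.83, 6.26 and 6.39, with the earlier pigs spread over the whole range. Fitted within the high-RFI line alone, 4 of the 25 probes passed, all of CS, while 4.58% of all probes passed, and the brightest CS probe differed by -0.61 (SE 0.12, limma adjusted p = 0.0352). Within the low-RFI line 0 passed (0% of all probes), and CS differed by -0.14 (SE 0.24).

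Of the 24 enzyme probes with a value in all 8 high-RFI pigs, 10 were lower in high-RFI replicates 5-8 than in 1-4 with no overlap of the pigs, and 1 was higher, the brightest IDH2 probe. In that line 16.3% of all probes had sets that did not overlap. The 10 were 6 CS probes and 1 each of PC, IDH3A, SUCLG1 and MDH2. The seventh CS probe, A_72_P436629, has no value in high-RFI replicate 2 and did not overlap among the pigs measured, which would make 11 of 25. In low-RFI pigs 2 enzyme probes were higher with no overlap, 1 of IDH2 and 1 of IDH3A, and 0 were lower, beside 4.38% of all probes.

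Whether the line difference itself changed between the sets was tested as an interaction, and 0 of the 25 probes passed, as did 0% of all probes. At an unadjusted p under 0.05 there were 4 of 25, beside 6.81% of all probes, and the smallest adjusted p was 0.704. The direction was shared: 24 of 25 probes had a higher low-RFI minus high-RFI difference in replicates 5-8. Over all probes 50.3% were above 0. Probes of a gene share its transcript, so these are 7 enzymes. In replicates 1-4, 0 of the 25 had lines that did not overlap, beside 3.59% of all probes. Without low-RFI replicate 8, 22 of 25 probes were above 0, and the median went from 0.46 to 0.40.

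Markers of several cell types leaned to 1 side in the same comparison, though none passed the limma interaction test. The interaction was above 0 for 11 of 11 skeletal muscle markers (median 2.48) and 11 of 12 adipocyte markers (median 0.29), and for 0 of 5 macrophage markers (median -0.92) and 0 of 7 T and NK cell markers (median -1.14). Without low-RFI replicate 8 these were 8 of 11 (median 0.26), 11 of 12 (0.35), 0 of 5 (-0.82) and 0 of 7 (-0.89). Over all pigs the remaining lists had 4 of 7 endothelial (median 0.05) and 3 of 4 smooth muscle markers (0.33) above 0. Skin epithelium had 1 of 4 (-0.46) and fibroblast and preadipocyte 1 of 4 (-0.19). The adipocyte mean, centred as above, was lowest in high-RFI replicates 5-8, from -0.30 to -0.13, against -0.17 to 0.27 in low-RFI pigs of the same numbers, with overlap. In replicates 1-4 it ran from 0.04 to 0.22 in high-RFI and from -0.26 to 0.28 in low-RFI pigs. The T and NK cell mean ran from -0.55 to 1.70 in high-RFI replicates 5-8 and from -1.10 to 0.30 in low-RFI pigs of the same numbers, and in replicates 1-4 from -0.54 to 0.58 and from -0.52 to 0.19. The macrophage mean ran from -0.07 to 1.70 and from -0.73 to 0.12 in replicates 5-8, and from -0.66 to 0.16 and from -0.40 to 0.32 in replicates 1-4, high-RFI first. The part of cell content in the enzymes' interaction was not tested.

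IDH3A had the smallest unadjusted p, 0.00258 in limma. In replicates 1-4 the low-RFI pigs read 2.57, 2.45, 2.49 and 2.55 and the high-RFI pigs 2.61, 2.57, 2.80 and 2.75. In replicates 5-8 the low-RFI pigs read 3.09, 2.60, 2.74 and 3.31 and the high-RFI pigs 2.11, 2.24, 2.47 and 2.53. The later sets of the lines thus did not overlap (2.86% of all probes had lines that did not overlap there), with the low-RFI pigs on top. The line difference was -0.16 in the earlier numbers and 0.60 in the later ones, a change of 0.76 (SE 0.21, adjusted p = 0.704), which was 0.63 (SE 0.19) without low-RFI replicate 8. The other 4 IDH3A probes changed by 0.41 to 0.51, and none of these had lines or sets without overlap.

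MDH2, the last step of the cycle, changed by 0.91 (SE 0.38, limma adjusted p = 0.722), from a line difference of -0.26 to 0.65. Without low-RFI replicate 8 the change was 0.70 (SE 0.35). Its low-RFI pigs of replicates 5-8 read 3.84, 3.07, 3.75 and 4.37 and the high-RFI pigs 2.75, 3.21, 3.06 and 3.41, so that 3 low-RFI pigs lay above all 4 high-RFI pigs and 1 did not. Its other probes changed by 0.95 and 0.97. SUCLG1 changed by 0.48 (SE 0.24), CS by 0.46 (SE 0.28), MDH1 by 0.46 (SE 0.31), PC by 0.41 (SE 0.29) and IDH2 by 0.30 (SE 0.38), which turned to -0.07 (SE 0.18) without low-RFI replicate 8.

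**Figure D3:**
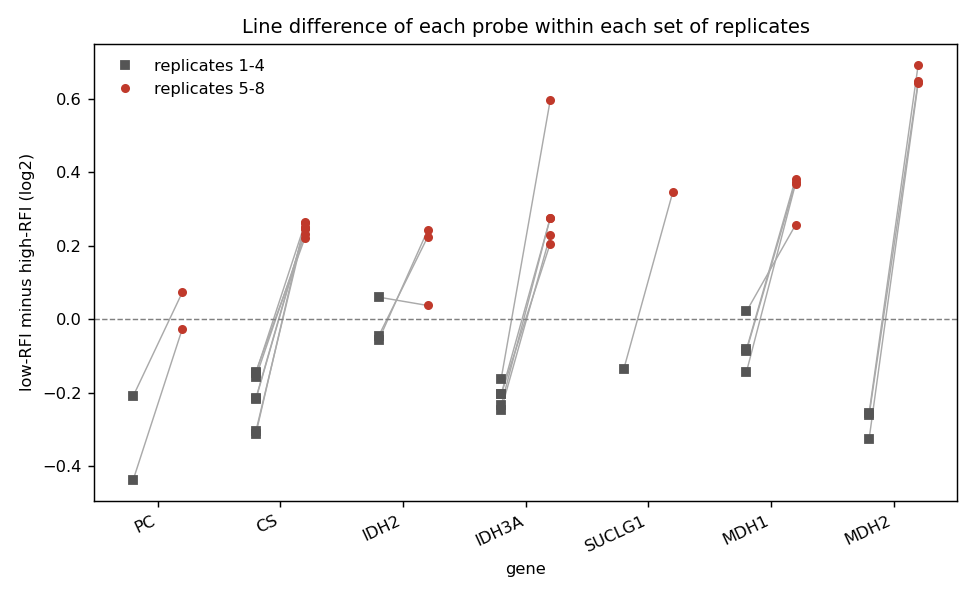
Line difference of each probe (y axis, low-RFI minus high-RFI, log2) within replicates 1-4 (squares) and within replicates 5-8 (circles), with a grey line joining the values of a probe, n = 4 pigs a group. The brightest MDH2 probe goes from -0.26 to 0.65 and that of IDH3A from -0.16 to 0.60.

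Probes of a gene varied together from pig to pig, with an exception in IDH3A. Pearson r between probes of a gene over the 16 pigs was 0.91 to 0.99 for CS (21 pairs), 0.90 to 0.98 for MDH1 (6 pairs), 0.96 to 0.98 for MDH2 (3 pairs), 0.88 to 0.93 for IDH2 (3 pairs) and 0.89 for PC (1 pair). Spearman's rho was as low as 0.63 for IDH2, whose r was 0.56 to 0.72 without the array of low-RFI replicate 8. In all 44 pairs were compared, and 11 of the pairs share bases, so those 11 are not independent readings. The part of shared bases in this agreement was not tested.

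For IDH3A, r ran from 0.38 to 0.97 over 10 pairs. The probes A_72_P581927, A_72_P396543, A_72_P477443 and A_72_P586926, which share bases and start between bases 1601 and 1650 of an Ensembl transcript, correlated at 0.84 to 0.97. The probe A_72_P498784, at base 2510 of a separate sequence (AY609663), correlated with them at only 0.38 to 0.50. It is the brightest and therefore stands for the gene. The IDH3A results that rest on it alone include the difference of 0.22 between lines and the interaction with an unadjusted limma p of 0.00258. The lines and sets without overlap and the highest value on the array of low-RFI replicate 8 also rest on it alone. So do the correlations of IDH3A with other enzymes, with markers and with its nearest genes, given below. The identical pair A_72_P396543 and A_72_P477443 correlated at 0.87 although the bases are the same.

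From pig to pig the enzymes varied together. Of the 21 pairs of enzymes, 17 had a positive Pearson r over the 16 pigs, with a median of 0.54, and 11 were above 0.5. Among all probes, the share with r above 0.5 to a given enzyme ran from 3.45% for IDH2 to 16.1% for CS. Of the 21 pairs, 9 passed an adjusted p of 0.05 in permutation tests of both Pearson's r and Spearman's rho.

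SUCLG1 was in 4 of these 9 pairs. With MDH2 its r was 0.86 and rho 0.90 (permutation, adjusted p = 0.000630 and 0.000210), with CS 0.85 and 0.79 (0.000630 and 0.00357), and with MDH1 0.78 and 0.81 (0.00154 and 0.00252). With IDH3A it was 0.59 and 0.69 (0.0371 and 0.0134). MDH1 and MDH2, the cytosolic and mitochondrial malate dehydrogenases of the malate-aspartate shuttle, correlated at 0.76 and 0.75 (0.00252 and 0.00635), and IDH3A and MDH2 at 0.76 and 0.62 (0.00252 and 0.0280). CS correlated with MDH1 at 0.68 and 0.69 (0.00424 and 0.0134) and with MDH2 at 0.60 and 0.63 (0.0360 and 0.0270).

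The correlations were weaker with other scalings. With quantile scaling, r over these 9 pairs was 0.37 to 0.77, and with normexp and quantile together 0.39 to 0.80. The median over all 21 pairs was then 0.34 and 0.35, against 0.54. With the main scaling and without the 2 pigs farthest from the median, r over these 9 pairs was 0.55 to 0.85. After the means of line and set were taken out it was 0.45 to 0.83, and without the array of low-RFI replicate 8 0.59 to 0.90. Within replicates 1-4 it was 0.30 to 0.87 and within replicates 5-8 -0.01 to 0.96. The -0.01 belongs to PC and CS, whose r was 0.72 over all pigs (rho 0.73, permutation adjusted p = 0.00714 and 0.00748) and 0.87 within replicates 1-4. The difference between those values was not tested.

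IDH2 stood apart. Its r with the other enzymes ran from -0.42 with PC to 0.46 with IDH3A, and no pair of it passed for both coefficients. With PC its rho of -0.57 over all pigs passed (permutation adjusted p = 0.0487), while its r did not (permutation adjusted p = 0.147). The negative relation of PC and IDH2 was not seen inside the sets. Their r was 0.07 within the earlier replicate numbers and -0.10 within the later ones. It was -0.07 after the means of line and set were taken out. Over all pigs, the positive r of IDH2 with IDH3A and with MDH2 turned negative without the array of low-RFI replicate 8. With IDH3A it went from 0.46 to -0.21 and with MDH2 from 0.41 to -0.10, while with CS it went from -0.24 to -0.63. Within the earlier replicate numbers, which do not hold that array, r of IDH2 was 0.20 with IDH3A, 0.63 with MDH2 and -0.33 with CS.

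**Figure D4:**
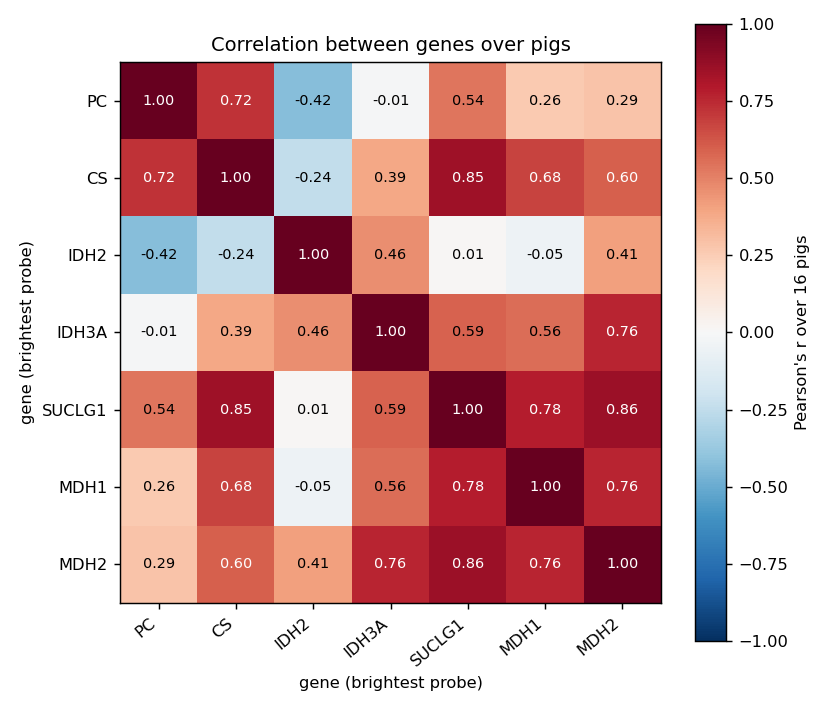
Pearson's r between the genes over the 16 pigs (colour and number in each cell), each gene by its brightest probe. CS, SUCLG1, MDH1 and MDH2 form a block from 0.60 to 0.86, while IDH2 is pale against most others.

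By their brightest probes, 3 enzymes were at their highest of the 16 pigs on the array of low-RFI replicate 8. IDH2 read 5.67 against a mean of 3.99 ± 0.25 (SD) in the other 7 low-RFI pigs, MDH2 4.37 against 3.46 ± 0.44 and IDH3A 3.31 against 2.64 ± 0.22. CS (6.39 against 6.26 ± 0.38) and MDH1 (7.01 against 6.84 ± 0.22) lay within the spread of those pigs. By these probes the 3 enzymes were thus high on this array along with the muscle markers given above. Each remaining IDH3A probe was at its highest in another pig. A_72_P586926, for example, read 0.65 in high-RFI replicate 3 and 0.63 here. The part of muscle RNA in the values of the 3 enzymes was not tested beyond leaving the array out.

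The adipocyte markers also moved with some enzymes. Their mean level correlated over the 16 pigs with SUCLG1 at r = 0.82 (rho 0.73, permutation adjusted p = 0.00840 and 0.0588) and with CS at r = 0.80 (rho 0.76, permutation adjusted p = 0.0120 and 0.0588), among 56 relations of 7 genes with 8 marker lists. Without the 2 pigs farthest from the median these were 0.84 and 0.78. Within replicates 1-4 they were 0.83 and 0.91, and within replicates 5-8 0.76 and 0.65. No other relation passed for Pearson's r, and none passed for Spearman's rho. The part of adipocyte content in the enzymes' values was not tested.

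The genes most like each enzyme, by Pearson r over 16 pigs among 4021 named genes, are given as a description, with no test. For SUCLG1 they were VDAC1 (0.96), the channel of the outer mitochondrial membrane, and NDUFB8 (0.95), a subunit of respiratory complex I. For MDH2 they were COX5B (0.95) of complex IV and ATP5O (0.95) of ATP synthase, and for MDH1 FDPS (0.90), of isoprenoid synthesis, and NDUFA9 (0.89) of complex I. For CS they were ANXA1 (0.95), annexin A1, and ME1 (0.94), cytosolic malic enzyme, which makes NADPH for fatty acid synthesis. For PC they were ELSPBP1 (0.93) and AHCYL1 (0.92).

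For IDH3A the nearest were CHCHD10 (0.88), a mitochondrial intermembrane space protein, and LDHA (0.87), lactate dehydrogenase A. For IDH2 they were ATP2A2 (0.91), a calcium pump of the sarcoplasmic reticulum, and CMYA5 (0.91), a striated muscle protein, and without the array of low-RFI replicate 8 these were 0.63 and 0.61.

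The rest of the pathway was read from lists of other genes. Of 12 other genes of the TCA cycle 6 were measured (IDH3B, DLST, DLD, SDHA, SDHB and SDHD). None passed for line, set or interaction in limma, as 0%, 5.18% and 0% of all probes did. The line difference was above 0 for 6 of 6 with a median of 0.12, beside 0.00 over all probes. SDHD, a membrane anchor of succinate dehydrogenase, had the smallest line p with a difference of 0.19 (SE 0.16), followed by IDH3B, a regulatory subunit of the complex that IDH3A belongs to, with 0.14 (SE 0.16). The interaction was above 0 for 6 of 6 with a median of 0.67, the direction of the 7 enzymes and of the adipocyte and muscle markers given above, and was 0.89 (SE 0.30) for SDHA and 0.82 (SE 0.27) for IDH3B. Across the sets SDHA differed by -0.37 (SE 0.19) and SDHD by -0.21 (SE 0.16).

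Of 14 genes of pyruvate dehydrogenase and pyruvate entry 5 were measured and none passed in any comparison. Across the sets PDK1, a kinase that switches pyruvate dehydrogenase off, differed by -0.48 (SE 0.17, limma adjusted p = 0.105) and PDHA1, its catalytic subunit, by -0.20 (SE 0.17). Of 14 genes of exchange with the cytosol 7 were measured and none passed. PCK2, the mitochondrial form of phosphoenolpyruvate carboxykinase, differed by 0.56 (SE 0.17, limma adjusted p = 0.0622) across the sets and GLUD1, glutamate dehydrogenase, by -0.33 (SE 0.11, limma adjusted p = 0.0728). Of 12 mitochondrial biogenesis factors 5 were measured and none passed, with TFB1M, a methyltransferase of mitochondrial ribosomal RNA, at -0.28 (SE 0.13) and TOMM20, an import receptor of the outer membrane, at 0.23 (SE 0.11) across the sets.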

How the data were processed

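Per the file headers, the arrays were quantified with Agilent Feature Extraction 10.7.3.1, and the deposited processed signals are background-subtracted intensities on a linear scale. The deposited value table holds log2 values of the same signals minus each array's median, as checked against the scanner files (28963 spots). The submitters' processing notes list R 2.10.0. The log2 processed signal relative to the 75th percentile of its array was computed from 43803 non-control spots without those that the software called non-uniform or population outliers. Probes were kept if well above background on at least 8 arrays with at least 6 values in each line, which left 0.119% of values missing. The line, the set with line as a term, and the interaction over the 4 groups of line and set were tested in limma 3.58.1 (R 4.3.3) with Benjamini-Hochberg adjustment over all 32100 probes. Correlations were tested with 100000 permutations and adjusted over their family. Each gene is represented by its brightest probe. All probes of the 7 members analysed are reported, with the 2 most alike genes of each and, of each other list, the 2 genes with the smallest p. The members and lists were chosen with earlier results of these data known, and 1 gene of a list is not reported here. RefSeq tables served for names only, and 10926 probes had a symbol. The labels name 1 pig per array, and the number of arrays limits the precision. The limma fits were tested on simulated data. Alternatives were other scalings, background correction, filters, weights, blocks and left-out arrays.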

Additional observations from a re-analysis of the deposited data

Results flagged for a closer look

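IDH2 read 5.67 in low-RFI replicate 8, set apart from the other 7 low-RFI pigs, the next of which was at 4.27. Among 14 groups of 8 pigs examined in this way it was the only such value, and chance alone gives about 1 in 20 groups. The skeletal muscle markers on this array averaged 7.10, as given in the report, and the part of muscle RNA in the value was not tested.

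For the brightest IDH3A probe, every low-RFI pig of replicates 5-8 lay above every low-RFI pig of replicates 1-4. In the high-RFI line every pig of replicates 5-8 lay below those of replicates 1-4. The nearest pigs were close, at 2.604 against 2.574 in the low-RFI line and 2.527 against 2.565 in the high-RFI line. Of all probes, 4.38% had sets without overlap in the low-RFI line and 16.3% in the high-RFI line. The set difference was 0.42 in low-RFI pigs and -0.34 in high-RFI pigs, so that the high-RFI minus low-RFI difference between them was -0.76. The interaction test of limma gave an adjusted p of 0.704, and the other 4 IDH3A probes showed no such separation.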

How the results depend on the processing

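Among the 25 probes, calls changed with the processing for the number set only. The count past the threshold between sets was 0, against 1 with quantile scaling, 1 with normexp and quantile, 10 with array weights, 4 within the high-RFI line and 0 to 10 when each pig was left out in turn. Between the lines and for the interaction it was 0 throughout, including when each pig was left out. Over all probes the set count was 1662, against 865 with no filter on dim probes, 5351 with array weights, 0 within the low-RFI line, 0 within each of slides 1, 2, 3 and 4, and 603 to 4790 with a pig left out. The line count of 0 became 5 within replicates 1-4 and ran from 0 to 1 with a pig left out (1 without low-RFI replicate 4). The cause of these changes was not tested, beyond the fewer pigs in the fits within a line, slide or set.

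The labels do not say whether replicate numbers pair the pigs. Same-numbered pigs correlated at -0.29 to 0.32 in their deviations from the line means, and 1 of 8 low-RFI pigs was closest to its own number. Those deviations include the set difference, so the values cannot settle whether the pigs were paired. With the replicate block 0 of the 25 probes passed in each comparison, and over all probes the interaction count went from 0 to 1 and the set count from 1662 to 1838.

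Signs turned as follows. For the line, CS was -0.055 with quantile scaling, -0.053 with normexp and quantile and -0.12 with array weights. Within replicates 1-4, CS was -0.22, IDH2 -0.057, IDH3A -0.16, SUCLG1 -0.13, MDH1 -0.085 and MDH2 -0.26. Fits within slides were added after the data were seen: slide 1 gave PC 0.22 and IDH2 -0.11, slide 2 IDH2 -0.23, slide 3 CS -0.46, IDH3A -0.060, SUCLG1 -0.17 and MDH2 -0.13, and slide 4 PC 0.0056 and MDH1 -0.030. Another probe gave -0.027 for CS and -0.0083 for IDH3A. With a pig left out, CS ran from -0.053 to 0.088 and IDH2 from -0.12 to 0.18. For the set, IDH3A was -0.0016 with array weights, -0.34 within high-RFI (where the sets did not overlap), -0.037 and -0.083 within slides 1 and 3, and -0.049 to 0.10 with a pig left out. Within low-RFI, SUCLG1 was 0.062 and MDH2 0.36. Within slides, MDH2 was 0.036, 0.069 and 0.012 on slides 1, 2 and 4 and SUCLG1 0.021 on slide 2. Another MDH2 probe gave 0.0020.

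Limits are the 16 arrays, the untested origin of the number sets, 32677 probes without a symbol, and the pig with muscle markers.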
